A study of Homo sapiens with 4 samples.

Results

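The autophagy machinery genes examined here were 37 genes chosen by name as the core apparatus that builds the autophagosome: the ULK initiation complex, the PI3-kinase complex that marks the site, the factors that supply lipid, the conjugation systems for ATG12 and the ATG8 proteins, the ATG4 proteases, the ATG8 proteins themselves and 4 cargo receptors. The rule that lists them uses no measured value, although the set was drawn up with earlier results of these data known. All 37 were found, and all passed the filter that left 12183 genes for comparison (at least 1 FPKM in at least 1 library; FPKM is fragments per kilobase of transcript, relative to the mapped fragments of a library). None was listed at 0 in any library. GABARAP and VMP1 were each deposited only as a locus joined to a neighbour (CTDNEP1,GABARAP and MIR21,VMP1), so their values also hold reads of that neighbour.

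The 4 RNA-seq libraries came from IMR90, a line of human lung fibroblasts with a limited replicative lifespan, each time at passage 16 and after infection with a retrovirus. The growing cells carried the empty pBabe vector and were collected at day 13. In the cells of oncogene-induced senescence (OIS), H-RasV12 fused to the oestrogen receptor (ER:H-RasV12) was switched on with 10 nM tamoxifen for 8 days. The remaining 2 libraries came from cells that expressed H3.3cs1, a Flag-tagged form of the histone variant H3.3 that matches its proteolytically cleaved product, at day 3 (early) and day 13 (late) after infection. The comparisons ask how the transcriptome of the cleaved histone relates to that of growing cells and of oncogene-induced senescence. A day 3 culture with empty vector was not analysed here, so the histone, the infection and the culture time cannot be told apart in the early cells, and the OIS cells also differ from the growing cells by vector and drug.

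Autophagy encloses cytoplasm in a double membrane, the autophagosome, and delivers it to the lysosome. The ULK kinase complex starts the process when mTORC1 is inactive, the PI3-kinase complex then makes PI3P on the membrane, and WIPI proteins that bind PI3P bring in the machinery that attaches ATG8 proteins (the LC3 and GABARAP families) to phosphatidylethanolamine. Cargo receptors such as SQSTM1 (p62) link ubiquitinated material to the ATG8 proteins. In senescent fibroblasts autophagy is known as a part of the transition to, and the secretory output of, the arrested state. Its rate is set largely by protein modification, which RNA levels do not measure.

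Each group had 1 library, so differences between groups have no replicate check and carry no test, SD or p-value. They are given as differences of log2(FPKM + 1), which understates the change of low genes, and a gene is said to have risen or fallen only past 2-fold on that scale. HRAS and H3F3B read highest in the libraries of the labelled treatments. HRAS stood at 3153 FPKM in OIS and at 41.9 to 49.8 FPKM in the other 3. H3F3B, a gene for H3.3, stood at 450 FPKM in late and 229 in early H3.3cs1 cells against 105 in growing cells and 90.5 in OIS. H3F3A, another gene for H3.3, went the other way, at 132 FPKM in late and 130 in early H3.3cs1 cells against 190 in growing cells and 236 in OIS. Values below that are given without a library name follow the order growing, OIS, early H3.3cs1, late H3.3cs1. CDKN1A, the cell cycle inhibitor p21, read 363, 1500, 612 and 859 FPKM, and LMNB1, the lamin that is lost in senescence, read 30.8, 0.99, 5.03 and 1.09. All 9 fibroblast markers were at 1 FPKM or more in every library, although their summed level was 10812 FPKM (growing), 5000 (OIS), 6178 (early) and 11441 (late). In OIS 6 of the 9 fell (8.17% of all genes did) and 1 lay above growing. In early cells all 9 lay below growing and 2 fell (3.96% of all genes). In late cells 6 lay above growing, and 1 rose (LUM, from 34.7 FPKM in growing to 137 in late cells), against 3.51% of all genes. The part of these marker differences in the results below was not tested. None of 5 epithelial markers reached 1 FPKM, and the endothelial and leukocyte lists summed to at most 1.97 and 0.245 FPKM in a library. Of the 5 endothelial markers CDH5 was listed at 0 in all 4 libraries, whereas TEK read 1.05, 1.60, 1.04 and 0.75 FPKM. VWF was above 0 in every library, at 0.258 FPKM or less. The files hold no counts. The step between the lowest values gave a rough depth of 77.7% to 95.9% of the growing library for the other 3.

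The values of the 5 comparisons below share libraries with each other. The scaling of the libraries moved the median of all 12183 genes: rescaling each library to the same sum of named genes took the OIS minus growing median from 0.03 to -0.16, the early minus growing median from -0.02 to 0.19, the late minus early median from -0.04 to -0.26, and the OIS minus late median from 0.09 to -0.11, while late minus growing stayed near 0 (-0.04 and -0.03). Small differences of the members are therefore read with that shift.

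The machinery ranged from low to high levels in growing cells, from 1.61 FPKM for ATG10 to 274 FPKM for the CTDNEP1,GABARAP locus. The median was 11.4 FPKM against 9.03 FPKM over all genes, and 21 of the 37 lay above that median gene. Between libraries, 5 of the 37 (13.5%) spanned 2-fold or more between their lowest and highest library, against 32.3% of all genes, and 19 (51.4%) spanned less than 1.5-fold, against 35.8%. After same-sum rescaling these counts were 7 (18.9%, against 35.5%) and 11 (29.7%, against 29.3%). As deposited the 5 were WIPI1, ATG7, ATG16L2, MAP1LC3A and SQSTM1.

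**Figure D1:**
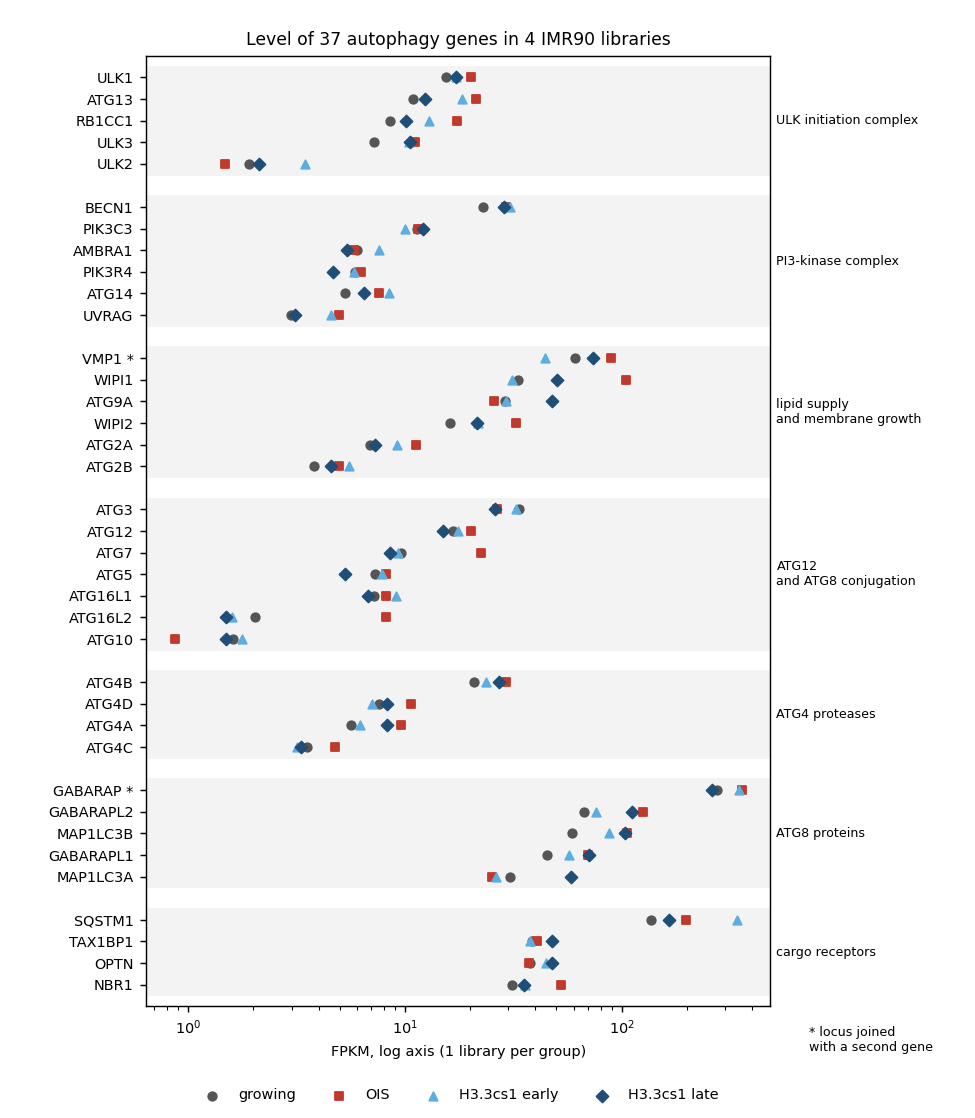
FPKM of the 37 members (1 per line, grouped by role) in each of the 4 libraries, on a log axis. Each point is 1 library, and the points of WIPI1, ATG7 and ATG16L2 in OIS, of MAP1LC3A in late H3.3cs1 cells and of SQSTM1 in early H3.3cs1 cells lie apart.

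In OIS against growing cells, 3 of the 37 members rose (WIPI1, ATG16L2 and ATG7) and none fell, which is 8.11% of the members against a background of 9.13% of all genes higher and 8.17% lower by 2-fold. At 1.5-fold, 12 members (32.4%) were higher and none lower, against 18.8% and 17.3% of all genes. The 12 were RB1CC1, ATG13, ATG2A, WIPI1, WIPI2, ATG7, ATG16L2, ATG4A, MAP1LC3B, GABARAPL1, GABARAPL2 and NBR1. The 2-fold share was near the background, whereas the 1.5-fold differences lay on the higher side alone. Above growing by any amount were 30 of 37 members with a median difference of 0.43, against 52.0% of all genes with a median of 0.03. With libraries rescaled to the same sum of named genes, 25 of 37 were above (67.6%, against 38.9% of all genes) with a median of 0.22, 8 were 1.5-fold or more higher (21.6%, against 13.0%) and 1 was lower (2.70%, against 23.9%). Fewer cells of a type and less RNA per cell cannot be told apart in such bulk libraries.

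Late H3.3cs1 cells had no member past 2-fold in either direction, against 3.51% of all genes higher and 5.47% lower. At 1.5-fold 5 members (13.5%) were higher and none lower, against 10.1% and 12.7%. The 5 were ATG9A, MAP1LC3A, MAP1LC3B, GABARAPL1 and GABARAPL2, so 4 of them encode ATG8 proteins. In early H3.3cs1 cells SQSTM1 alone rose (2.70% of members against 1.4% of all genes) and no member fell (3.96% of all genes). At 1.5-fold 4 members were higher there, namely SQSTM1, ULK2, ATG13 and ATG14 (10.8% against 5.7%), and none was lower (10.5% of all genes). Under the same-sum scaling that early count was 13 (35.1%, against 13.3% of all genes), and under quantile normalization 7. As deposited, 26 of 37 members lay above growing in each of these 2 comparisons, both with a median of 0.18, against 45.9% of all genes in late and 47.0% in early cells. The late median was 0.19 to 0.23 under the 3 other scalings, whereas the early one was 0.44 with the same sum (35 members above, 94.6%, against 69.8% of all genes) and 0.32 after quantile normalization (31 above).

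Comparison of the late with the early H3.3cs1 library found 1 member that rose, MAP1LC3A, and 1 that fell, SQSTM1, against 5.47% and 3.4% of all genes. At 1.5-fold 4 were higher (ATG9A, VMP1 in its joined locus, WIPI1 and MAP1LC3A) and 1 was lower, against 12.9% and 12.7%, and under the same-sum scaling that split was 1 and 8 (2.70% and 21.6%, against 8.30% and 23.4% of all genes). Between OIS and late H3.3cs1 cells, WIPI1, ATG7 and ATG16L2 were 2-fold or more higher in OIS and MAP1LC3A was lower, against 11.2% and 8.51% of all genes. At 1.5-fold 5 were higher, with RB1CC1 and ATG13 added, and 2 lower, with ATG9A added, against 23% and 17.8%, a split of 3 and 3 under the same-sum scaling (8.11% each, against 15.4% and 24.1%). Each of the member shares past 2-fold or 1.5-fold in these last 2 comparisons was under its background as deposited. By any amount, 29 of 37 members (78.4%) were higher in OIS than in late cells, against 55.4% of all genes (medians 0.22 and 0.09). With the same sum these were 18 (48.6%) and 42.9% (medians -0.01 and -0.11). In late against early cells 16 members (43.2%) were higher, against 45.8% of all genes. No difference from the background was tested.

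**Figure D2:**
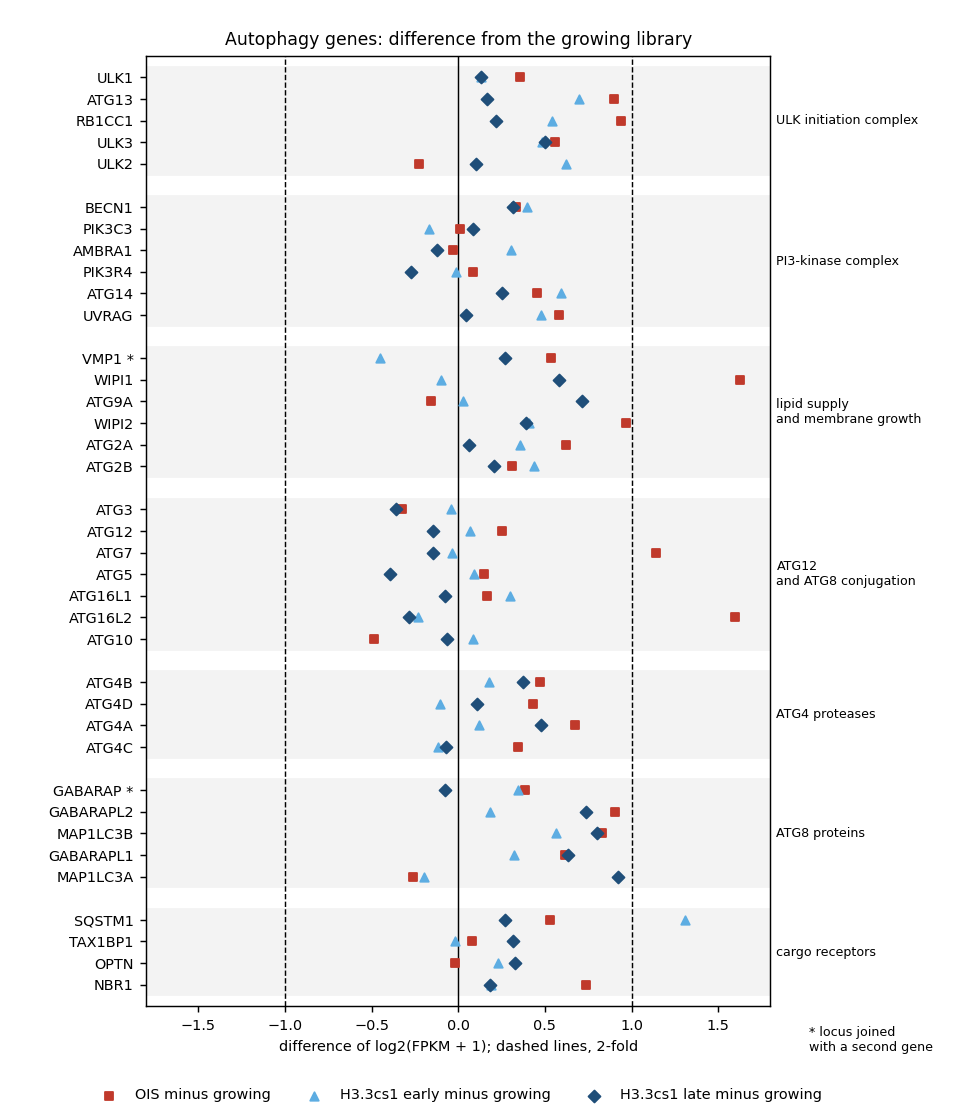
Differences of log2(FPKM + 1) from growing cells for each member (1 per line, by role) in OIS, early and late H3.3cs1 cells, with lines at 2-fold. The OIS values of WIPI1, ATG16L2 and ATG7 and the early value of SQSTM1 pass the upper line, and no member passes the lower one.

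Growing cells held the lowest level of 17 of the 37 members (45.9%), against 17.6% of all genes. Those 17 were therefore above growing in all 3 other libraries. The share was 51.4% against 17.8% after rescaling to the same sum, and 51.4% against 21.4% after quantile normalization. ATG3 alone was highest in growing cells, against 19.995% of all genes. Which library was highest depended on the scaling: OIS for 22 members as deposited (59.5%, against 37.8% of all genes), but for 8 after same-sum rescaling (21.6%, against 19.9%), when early H3.3cs1 was highest for 22 (59.5%, against 44.6%).

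The ULK initiation complex, which phosphorylates the first autophagy factors, had no member past 2-fold. Of the 5 genes listed for it here, 4 lay above growing in OIS and all 5 in both H3.3cs1 libraries. The shares of all genes above growing were 52.0% in OIS, 47.0% in early and 45.9% in late cells. ATG101 (C12orf44), a subunit of the complex listed here among the further core factors, read 51.7, 76.4, 49.0 and 48.8 FPKM. As deposited, ATG101 was thus below growing in both H3.3cs1 libraries. RB1CC1, the FIP200 scaffold, measured 8.54 FPKM (growing), 17.3 (OIS), 12.9 (early) and 10.1 (late). ATG13, the adaptor that links the kinase to that scaffold, measured 10.9, 21.2, 18.4 and 12.4 FPKM in the same order. As deposited, both were highest in OIS (1.92-fold and 1.86-fold over growing), intermediate in early and near growing in late cells (1.16-fold and 1.12-fold). Same-sum rescaling took the median difference of the 5 genes from growing from 0.56 to 0.34 in OIS. In early cells it took that median from 0.54 to 0.78, so the order of OIS and early cells depended on the scaling. ULK1, the main kinase, read 15.6, 20.2, 17.1 and 17.1 FPKM. ULK2, its close relative, was low and highest in early cells (1.91, 1.48, 3.48 and 2.12 FPKM). ULK3, a related kinase, read 7.20, 11.1, 10.5 and 10.6 FPKM, 1.40-fold to 1.47-fold above growing in the other 3 libraries. The share of ULK1 in the summed FPKM of the 3 kinases ran from 63.1% in growing to 55.1% in early cells, while that of ULK2 ran from 4.51% in OIS to 11.2% in early cells.

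The PI3-kinase complex, which makes the lipid that WIPI proteins bind, had no member of 6 past 2-fold. The median differences from growing were 0.21 in OIS (-0.01 after same-sum rescaling), 0.06 in late and 0.35 in early cells (0.59 after that rescaling). BECN1, the regulatory subunit Beclin 1, read 22.9 FPKM (growing), 29.1 (OIS), 30.4 (early) and 28.8 (late). ATG14, which directs the complex to the autophagosome site, read 5.29, 7.61, 8.48 and 6.50 FPKM, and UVRAG, which takes its place in the endosomal form of the complex, 3.00, 4.99, 4.57 and 3.12. The growing library was lowest for these 3 genes, with ATG14 1.51-fold higher in early cells and UVRAG 1.499-fold higher in OIS. The lipid kinase PIK3C3 (VPS34) stayed between 10.0 and 12.1 FPKM, its partner PIK3R4 (VPS15) between 4.68 and 6.27, and AMBRA1, a regulator of BECN1, between 5.42 and 7.63.

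Among the factors that supply lipid and let the membrane grow, WIPI1 carried the clearest difference. WIPI1, a PI3P-binding protein of the forming autophagosome, measured 33.4 FPKM (growing), 105 (OIS), 31.1 (early) and 50.3 (late). OIS was 3.09-fold above growing (log2 1.63) and 2.06-fold above late cells, and the late library was 1.49-fold above growing. The call between OIS and late cells was lost under the other scalings (log2 0.80 with the same sum, 0.95 centred on the median and 0.87 after quantile normalization). WIPI2, which recruits ATG16L1 to PI3P, was also highest in OIS at 32.7 FPKM, against 16.2 in growing, 21.9 in early and 21.6 in late cells, 1.96-fold above growing and thus just short of 2-fold. WIPI1 made up 67.3% (growing), 76.3% (OIS), 58.7% (early) and 70.0% (late) of the summed FPKM of the 2 genes. ATG9A, the lipid scramblase carried by the seed vesicles, showed a different pattern: 28.8, 25.8, 29.4 and 47.9 FPKM, so that late cells stood apart from the other 3 libraries. Its late level was 1.64-fold above growing and 1.83-fold above OIS. Of the lipid transfer proteins, ATG2A read 6.94, 11.2, 9.15 and 7.29 FPKM and ATG2B 3.81, 4.96, 5.51 and 4.55. The joined MIR21,VMP1 locus, whose protein VMP1 is a scramblase of the endoplasmic reticulum, read 61.0, 88.9, 44.4 and 73.6 FPKM, lowest in early cells and highest in OIS.

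The conjugation genes divided by member. ATG7, the E1-like enzyme that activates both ATG12 and the ATG8 proteins, measured 9.59 FPKM (growing), 22.4 (OIS), 9.34 (early) and 8.57 (late). OIS alone stood apart, 2.21-fold above growing (log2 1.14; 0.92 with the same sum) and 2.44-fold above late cells. ATG16L2, a paralogue of the scaffold ATG16L1, rose from 2.04 FPKM in growing to 8.20 in OIS and read 1.60 in early and 1.49 in late cells, which puts OIS 3.02-fold over growing and 3.69-fold over late cells. ATG16L1 stayed between 6.78 and 9.07 FPKM. ATG16L2 thus held 22.1% of the summed FPKM of the 2 scaffolds in growing cells and 50.0% in OIS, against 15.0% and 18.1% in early and late cells. A share within a library does not change when all values of that library are multiplied by a common factor, though quantile normalization can change it.

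None of the other conjugation genes passed 2-fold. ATG3, the E2-like enzyme for the ATG8 proteins, read 33.7, 26.7, 32.7 and 26.1 FPKM, log2 -0.33 in OIS and -0.36 in late cells from growing cells. ATG10, the E2-like enzyme for ATG12, was the least abundant member in growing cells and OIS and read 1.61, 0.867, 1.77 and 1.496 FPKM. ATG12, the ubiquitin-like modifier, read 16.7, 20.1, 17.6 and 15.1 FPKM, and its target ATG5 read 7.26, 8.16, 7.80 and 5.29. All 7 conjugation genes were lower in late H3.3cs1 than in both growing and early cells, with medians of -0.15 and -0.21, none of them 2-fold. Of all genes 45.9% were higher in late than in growing cells and 45.8% higher than in early cells, both with a median of -0.04. Both comparisons use the same late library. The pattern of the 7 genes depended on the scaling, since 2 of 7 lay above growing and 1 above early after quantile normalization.

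Promoter sequences from RefSeq (GRCh38.p14; a build other than the hg19 of the expression files) matched 33 of the 37 members, with 41 windows of the 250 bases before an annotated start. Those of the 3 genes that rose in OIS and of MAP1LC3B are printed, so that these genes can be read beside their regulatory sequence. MAP1LC3B, an ATG8 gene, was 1.74-fold to 1.78-fold higher in OIS and late cells and thus under 2-fold. The windows of SQSTM1, which rose in early cells, are not printed. Capitals mark GC boxes (GGGCGG, either strand), CCAAT boxes (CCAAT, either strand) and, in MAP1LC3B, the antioxidant response element form TGACNNNGC. The windows are chr17:68457497-68457746 on the minus strand for WIPI1, chr3:11272147-11272396 on the plus strand for ATG7, chr11:72814161-72814410 on the plus strand for ATG16L2 and chr16:87392086-87392335 on the plus strand for MAP1LC3B, each ending at the base before the start.
WIPI1: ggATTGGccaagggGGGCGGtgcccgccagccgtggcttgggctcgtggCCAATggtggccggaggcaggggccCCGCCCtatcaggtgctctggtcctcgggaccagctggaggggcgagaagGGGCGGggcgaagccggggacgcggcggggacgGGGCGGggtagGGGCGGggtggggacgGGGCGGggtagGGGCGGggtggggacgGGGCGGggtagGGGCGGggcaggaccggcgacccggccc
ATG7: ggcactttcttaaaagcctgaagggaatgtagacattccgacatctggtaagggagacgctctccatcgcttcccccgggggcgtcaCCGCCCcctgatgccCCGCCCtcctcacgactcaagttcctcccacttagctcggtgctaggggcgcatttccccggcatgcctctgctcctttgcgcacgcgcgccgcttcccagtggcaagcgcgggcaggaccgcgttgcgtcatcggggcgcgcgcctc
ATG16L2: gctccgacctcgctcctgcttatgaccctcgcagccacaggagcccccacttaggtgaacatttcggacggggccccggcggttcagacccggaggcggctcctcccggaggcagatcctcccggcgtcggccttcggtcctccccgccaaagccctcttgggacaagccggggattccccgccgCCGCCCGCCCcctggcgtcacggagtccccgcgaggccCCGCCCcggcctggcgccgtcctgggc
MAP1LC3B: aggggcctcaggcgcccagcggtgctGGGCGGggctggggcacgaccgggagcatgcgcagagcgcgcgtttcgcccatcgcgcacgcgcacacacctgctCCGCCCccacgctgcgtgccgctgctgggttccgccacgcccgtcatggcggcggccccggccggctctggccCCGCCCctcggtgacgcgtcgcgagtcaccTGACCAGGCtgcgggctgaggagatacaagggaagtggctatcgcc

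The WIPI1 window held 9 GC boxes and 2 CCAAT boxes and was 79.6% G and C, the highest of the 41 windows, whose median was 62.4% against 58.0% over all 35116 windows. ATG7 held 2 GC boxes and ATG16L2 and MAP1LC3B 3 each. At least 1 GC box stood in 23 of the 33 members (69.7%), against 46.2% of 27305 genes, and a CCAAT box in 12 (36.4%) against 36.997%. These 2 motifs were searched after the expression values were known. The 27305 genes are all those with a promoter window, not the 12183 compared here, and were not matched for G and C content. The E-box CACGTG, the core of the element bound by MiT factors such as TFEB, was in 3 members (ATG14, ATG3 and ULK3, 9.09%) against 7.73% of genes, and its longer form TCACGTG, a subset of the same matches, in 2 (6.06%) against 4.02%. TGACNNNGC was in 2 (MAP1LC3B and ULK3, 6.06%) against 13.2%. No member window held the amino acid response element form TGATGNAA, the AP-1 site TGANTCA or the forkhead site GTAAACA, which 3.89%, 8.06% and 3.66% of genes hold. All motifs were searched on both strands, and a match is a description of the sequence only.

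All 4 ATG4 proteases, which trim new ATG8 proteins and release them from membrane, were above growing in OIS by less than 2-fold. Of all genes 52.0% were above growing there. ATG4A read 5.65 FPKM (growing), 9.58 (OIS), 6.21 (early) and 8.24 (late), 1.59-fold higher in OIS and 1.39-fold in late cells. ATG4B, the most active family member, made up 54.0% to 59.03% of the family's summed FPKM in every library and read 20.8, 29.3, 23.7 and 27.2 FPKM. ATG4C read 3.53, 4.75, 3.18 and 3.31 FPKM, and ATG4D 7.63, 10.6, 7.03 and 8.29.

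The ATG8 proteins, which coat the autophagosome and bind cargo receptors, had a median difference from growing of 0.62 in OIS (0.38 after same-sum rescaling), 0.74 in late and 0.32 in early cells (0.57 after that rescaling and 0.52 after quantile normalization). In late cells this was the highest median of the 7 roles, with 0.69 to 0.78 under the 3 other scalings, and the next role stood at 0.33. MAP1LC3B measured 58.9 FPKM (growing), 106 (OIS), 87.4 (early) and 103 (late). GABARAPL2 measured 66.8, 126, 75.97 and 112 FPKM and GABARAPL1 45.4, 70.1, 56.9 and 70.9. All 3 had growing as their lowest library, with OIS and late cells close to each other at 1.53-fold to 1.87-fold above it. MAP1LC3B shares near-identical sequence with MAP1LC3B2, whose locus stayed at 0.379 to 0.475 FPKM, so the split of reads between them is uncertain.

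MAP1LC3A behaved differently from the other LC3 gene. Its level was 30.4 FPKM (growing), 25.2 (OIS), 26.4 (early) and 58.5 (late), so only the late library stood apart. The late level was 1.90-fold above growing (log2 0.92, short of the 2-fold rule), 2.17-fold above early and 2.27-fold above OIS. The step from early to late was under 2-fold under the same-sum scaling (log2 0.88) and quantile normalization (0.95). Among the 4 ATG8 genes with a locus of their own, MAP1LC3A held 15.1% (growing), 7.73% (OIS), 10.7% (early) and 17.0% (late) of the summed FPKM, while MAP1LC3B held between 29.2% and 35.4%. The joined CTDNEP1,GABARAP locus read 274, 358, 348 and 260 FPKM, and with it included GABARAP took 57.7% of the family in growing and 43.0% in late cells.

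**Figure D3:**
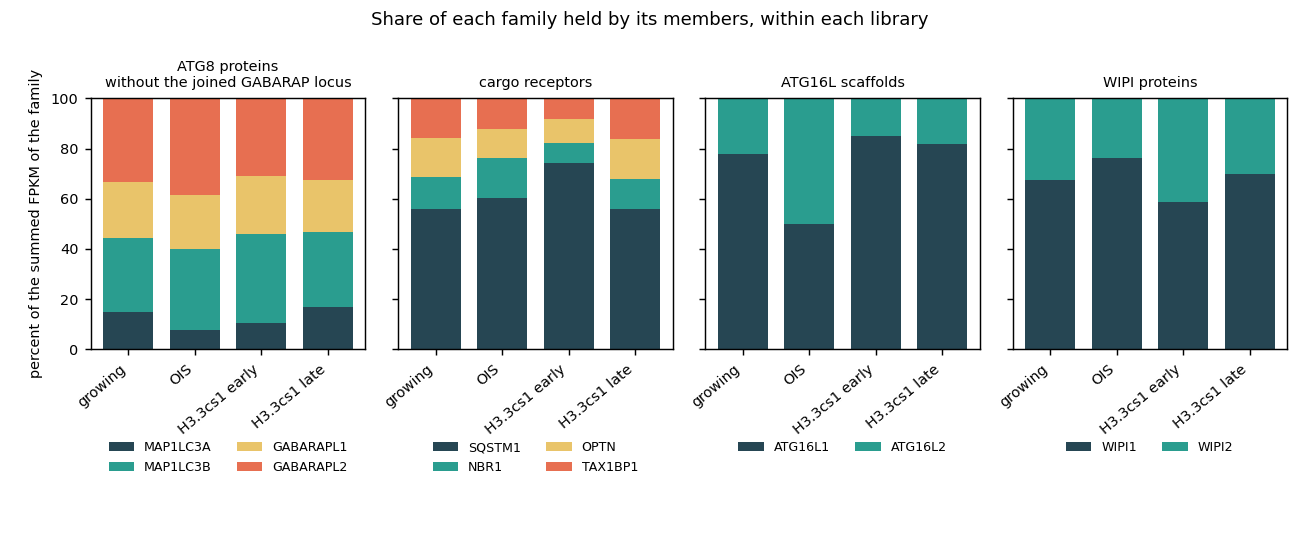
Percent of the summed FPKM of a family held by each of its members in the 4 libraries (stacked bars from 0 to 100), for the ATG8 genes with a locus of their own, the cargo receptors, the ATG16L scaffolds and the WIPI proteins. ATG16L2 takes 50.0% of its pair in OIS, SQSTM1 takes 74.2% of the receptors in early H3.3cs1 cells, and MAP1LC3A takes 7.73% of the 4 singly deposited ATG8 genes in OIS against 17.0% in late H3.3cs1 cells.

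Of the cargo receptors, SQSTM1 was the most abundant in every library and the one past 2-fold. SQSTM1 measured 137 FPKM (growing), 198 (OIS), 341 (early) and 166 (late). Early cells were 2.48-fold above growing (log2 1.31) and late cells 2.05-fold below early, a step that was log2 -0.99 when libraries were centred on their median. SQSTM1 held 56.1% (growing), 60.2% (OIS), 74.2% (early) and 55.8% (late) of the summed FPKM of the 4 receptors. NBR1, which resembles SQSTM1 in domain order, was highest in OIS at 52.6 FPKM, against 31.2, 35.8 and 35.6 in growing, early and late cells. OPTN, a receptor for mitochondria and bacteria, read 37.9, 37.3, 44.6 and 47.7 FPKM, and TAX1BP1 read 38.4, 40.6, 37.9 and 47.9. Both were highest in late cells by under 1.5-fold.

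The wider pathway was described by 8 lists of 89 other genes, of which 81 passed the filter. In OIS 6 of the 81 rose and none fell, in late H3.3cs1 cells 3 rose and 1 fell, and in early H3.3cs1 cells 2 rose and none fell. DEPTOR, among those that rose in late cells, passed the filter only through its late value. The shares of all genes that rose in these 3 comparisons were 9.13%, 3.51% and 1.4%, and those that fell 8.17%, 5.47% and 3.96%. Late against early cells had 1 higher and 2 lower, against 5.47% and 3.4% of all genes. OIS against late cells had 3 higher and 2 lower, against 11.2% and 8.51% of all genes. Above growing by any amount were 57, 67 and 59 of the 81 in OIS, late and early cells, with medians of 0.20, 0.20 and 0.26, against 52.0%, 45.9% and 47.0% of all genes. The OIS and early values moved with the scaling, as did those of all genes. With the same sum of named genes 6 rose in early cells and 75 were above growing, with a median of 0.49. Of all genes 2.59% then rose in early cells and 69.8% were above growing, with a median of 0.19. In OIS 3 then rose, 2 fell and 41 were above growing, with a median of 0.00, and TMEM41B (log2 0.87), ATP6V1F (0.82) and ATP6V1G1 (0.95) were under 2-fold.

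Upstream of the ULK complex, 1 of the 12 measured genes of mTORC1 and its activators passed 2-fold (8.33%, against 1.4% of all genes that rose in early cells). RRAGC, a Rag GTPase that brings mTORC1 to the lysosome, rose in early cells, with 13.2 FPKM (growing), 12.5 (OIS), 38.0 (early) and 17.9 (late) (2.76-fold over growing, and 2.07-fold lower in late than in early cells). Of the 9 mTORC1 inhibitors, DDIT4 (REDD1), a stress-induced one, rose in OIS and fell in late cells. It read 15.2, 38.9, 8.91 and 5.02 FPKM, 2.46-fold higher in OIS and 2.69-fold lower in late cells than in growing, so that OIS was 6.62-fold above late. DEPTOR rose in late cells at low level (0.09, 0.37, 0.41 and 1.23 FPKM). It passed the filter only through that late value, so the filter and the call rest on the same value. SESN3 read 1.18, 0.67, 2.57 and 2.34 FPKM, with log2 -1.003 between OIS and late cells. Of the 6 AMPK subunits, PRKAG2 was lower in OIS than in late cells (9.93, 5.15, 10.6 and 16.51 FPKM; log2 -1.51). Among the 6 measured transcription factors of autophagy genes none passed 2-fold as deposited. MITF came closest, with 3.21 FPKM in growing and 7.21 in late cells (log2 0.96), and 1 gene of the list passed 2-fold in late cells when centred on the median and after quantile normalization. TFEB read 2.32, 2.14, 2.64 and 3.00 FPKM and TFE3 49.3, 53.4, 49.6 and 62.1.

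Among 9 measured further core factors TMEM41B, a scramblase that acts with VMP1, rose in OIS (14.2, 31.4, 12.4 and 16.8 FPKM, 2.14-fold). Of 10 further selective receptors BNIP3L (NIX), a mitophagy receptor, rose in OIS, with 28.0, 107, 40.8 and 39.1 FPKM (3.72-fold over growing and 2.69-fold over late cells). All 10 lay above growing in late cells, with a median of 0.29, against 45.9% of all genes with a median of -0.04. Downstream, 1 of the 12 measured genes for fusion with the lysosome rose (8.33%, against 1.4% of all genes), VPS41 of the HOPS tether, in early cells (9.74, 9.65, 23.2 and 13.1 FPKM). The 17 subunits and accessory proteins of the V-ATPase, the proton pump that acidifies the lysosome, had medians of 0.30 in OIS (0.06 after same-sum rescaling), 0.37 in late and 0.39 in early cells (0.65 after that rescaling and 0.66 after quantile normalization). ATP6V1B2 (28.0, 70.0, 52.7 and 29.4 FPKM), ATP6V1G1 (40.4, 93.5, 58.6 and 57.3) and ATP6V1F (105, 219, 138 and 115), all of the cytosolic V1 sector, rose in OIS. ATP6AP1 (102, 117, 89.6 and 228 FPKM) and the joined ATP6V0A1,MIR5010 locus (13.7, 25.6, 24.5 and 29.5), both of the membrane side, rose in late cells, and ATP6V0E2 was lower in late than in early cells (11.6, 10.7, 17.8 and 7.38 FPKM; log2 -1.17).

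**Figure D4:**
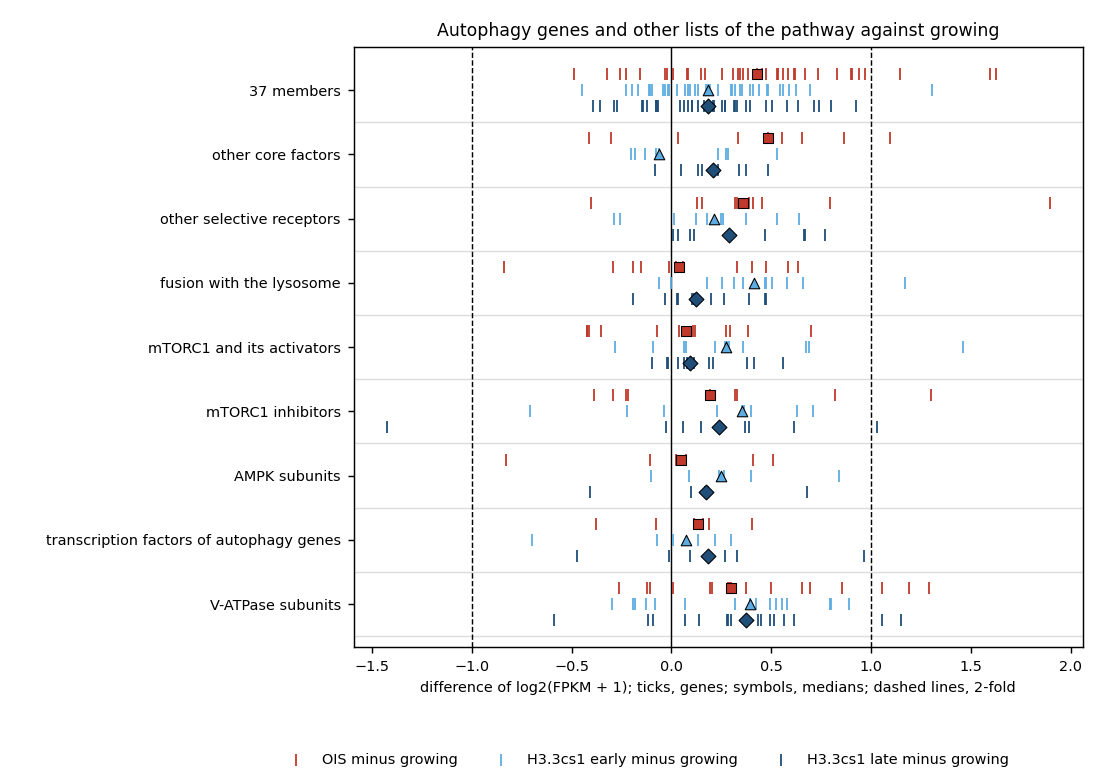
Differences of log2(FPKM + 1) from growing cells for the 37 members (top) and the genes of the 8 other lists, in OIS, early and late H3.3cs1 cells, with 1 tick per gene, a symbol at each median and dashed lines at 2-fold. Most ticks lie between the dashed lines, and BNIP3L in OIS is the farthest to the right.

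The medians of the lists differed between libraries. The fusion list had a median of 0.04 in OIS (-0.19 after same-sum rescaling) and 0.41 in early cells (0.64), and the core factor list 0.49 in OIS and -0.06 in early cells. After same-sum rescaling the core factor medians were 0.26 and 0.19. Of the 89 genes, 8 did not pass the filter: ATG9B, MAP1LC3B2, MAP1LC3C, FAM134B, VAMP8, RRAGD, FOXO1 and the joined MIR4315-1,PLEKHM1 locus, which was listed at 0 in all 4 libraries.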

How the data were processed

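RNA-seq libraries of 4 IMR90 cultures, 1 per group, were compared. Values are FPKM per locus as the authors deposited them. Named in the submitters' processing notes, with neither role nor order, are Bowtie2, TopHat2 2.0.3, Cufflinks 2.1.1 and build hg19. For strand, reads with several matches and scaling across libraries, the method is not given in the sources used here. Per the file headers the column names are shifted by 1, so columns were read by their content. Each file lists 26468 loci. The 2310 loci with no gene name, which hold 47.4% to 57.9% of the summed FPKM, were left out, the 2019 lines of 540 repeated symbols were summed, and 739 joined names were kept as they stand. Of 22679 symbols, 12183 reached 1 FPKM in at least 1 library.

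Differences of log2(FPKM + 1) were computed for 5 comparisons, with a call at 2-fold and a count at 1.5-fold. With 1 library per group no test was made. The members and the pathway, marker and motif lists were chosen with earlier results of these data known. All 37 members are described. From each other list, genes past 2-fold are named, up to 4 per list and comparison by size, as are genes in joined loci. MITF, TFEB, TFE3 and ATG101, under 2-fold, were named for their roles after their values were seen. Alternatives were a pseudocount of 0.1, no filter, a filter at 5 FPKM, the highest line of a symbol, joined loci left out, and same-sum, median-centred and quantile scaling. The code was tested on simulated data. Python 3.11.15, pandas 2.3.3, numpy 2.4.6 and matplotlib 3.10.9 were used.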

Additional observations from a re-analysis of the deposited data

Results flagged for a closer look

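In OIS against late H3.3cs1 cells and in late against early H3.3cs1 cells, members that lay on opposite sides of growing and at least 2-fold apart were listed for a closer look. OIS was not compared with early H3.3cs1 cells. With 1 library per group none of these differences was tested. ATG7 was above growing in OIS and below it in late H3.3cs1 cells, 1.29 apart on the log2 scale. ATG16L2 showed the same arrangement with a difference of 1.88. MAP1LC3A had the opposite one, below growing in OIS and above it in late H3.3cs1 cells, with a difference of -1.18. It was also below growing in early and above it in late H3.3cs1 cells, 1.12 apart. That did not hold under 2 scalings: with the same sum of named genes MAP1LC3A lay above growing in both (0.05 in early cells) and the gap was 0.88, and after quantile normalization the gap was 0.95.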

How the results depend on the processing

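The members' counts, medians and single values were recomputed under 8 alternatives, 1 at a time, the role and pathway lists under the 3 other scalings, and the ranges between libraries under 2 of those. Of 80 recomputed counts of members past 2-fold 75 stayed within 1.5 times the count reported, and of 1450 single values 1440 kept their side of 2-fold, 7 dropped under it and 3 passed it. Most of the single values were under 2-fold as deposited, so they could not drop under it. The 7 that did belong to ATG7, WIPI1, MAP1LC3A and SQSTM1. No value past 2-fold changed sign, but smaller ones did, up to 11 of 37 members in OIS against late cells with the same sum. In OIS against growing cells 5 members were higher with a pseudocount of 0.1 (RB1CC1 at log2 1.012 and WIPI2 at 1.009, added to the 3). In late against early H3.3cs1 cells 0 were higher with the same sum of named genes and 0 after quantile normalization, and 0 were lower when centred on the median. With the same sum, 2 were lower in OIS than in late cells, since ATG9A then reached log2 -1.10. Counts at 1.5-fold, whose alternatives were added after seeing the data, moved in 12 of 80 cases, up to 13 against 4 for early cells and 8 against 1 for members lower in late than in early cells, both with the same sum. Of 40 medians 34 moved by less than 0.1. Leaving out a replicate was not possible with 1 library per group. No paired analysis was possible because each group has 1 library. The files give no counts, so the depth behind a value is unknown and low genes such as ULK2, ATG10 and DEPTOR carry no interval.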
